A study of Mus musculus with 6 samples.

Results

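Replication-dependent histone genes encode the bulk of the core histones (H2A, H2B, H3 and H4) and the linker histones (H1) that package new DNA. They were taken as the protein-coding genes of the GENCODE vM21 annotation (mouse genome build GRCm38) whose symbols begin with Hist1, Hist2, Hist3 or Hist4 followed by a histone type. This gave 67 genes, of which 65 had a row among the 46983 genes counted in the data. Hist1h2bm and Hist1h2bh had no matched row and were not analysed here. By type there were 6 H1, 18 H2A, 18 H2B, 12 H3 and 13 H4 genes. By cluster, 54 lie in Hist1 on chromosome 13, 10 in Hist2 on chromosome 3, 2 in Hist3 on chromosome 11, and 1 (Hist4h4) on chromosome 6.

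The study sequenced total RNA, cleared of ribosomal RNA, from naive CD4 T cells, the lymph node T cells that have not yet met antigen. Cells of male mice were sorted as TCRb+ CD4+ CD62L+ CD44- DAPI- cells. The genotype Cmtr1 fl/fl CD4cre - gave 2 control libraries, and Cmtr1 fl/fl CD4cre + gave 4 libraries labelled Cmtr1 cKO, so both groups carry the floxed alleles and differ in CD4-Cre, which acts in the whole T lineage from its development in the thymus. The question was how RNA levels depend on CMTR1, the enzyme that adds a methyl group to the ribose next to the mRNA cap. Whether each library is a separate mouse is not in the labels. The p-values therefore reflect variation among these 6 libraries, part or all of which may be technical. Each mean ± SD below has n = 2 (control) or n = 4 (Cmtr1 cKO).

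Transcripts of these genes end without a poly(A) tail, at a conserved stem-loop bound by the protein SLBP, after cleavage guided by the U7 snRNA. They are made mostly in S phase and are degraded when DNA synthesis stops, and resting cells hold little of them. Ribosomal RNA depletion keeps RNAs without a tail, which selection by poly(A) would lose. Some histone genes also give longer, polyadenylated transcripts from sites past the stem-loop, and the annotated gene models contain both kinds of end.

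Gene counts per library ran from 9513874 to 11949838, and the histone genes held 0.0825% to 0.103% of them. Of the reads that mapped to 1 place, those outside annotated exons (the non-exonic read share) made up 37.2% and 33.96% in the controls and 52.3%, 51.6%, 46.7% and 38.0% in Cmtr1 cKO 1 to 4. Reads on the gene's own strand outnumbered those on the opposite strand by 18.7 to 22.7 times in 5 libraries and by 5.57 times in Cmtr1 cKO 3. Levels are given as CPM, gene counts scaled to a library of 1e6 by TMM, the library normalization of edgeR. Cmtr1 itself had 11.19 and 11.36 CPM in the controls, between the 16.01, 19.77, 14.60 and 7.57 CPM of Cmtr1 cKO 1 to 4, and did not separate the groups. No source used here says which exon was deleted, so the level does not check the labels.

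The stem-loops are shown because they are the element that sets these transcripts apart, and their letters differed between the H4 genes and the other types. A match to the 16-base stem-loop consensus was found in the annotated transcripts of 46 of the 67 genes, and in all 46 the 6 bases on each side of the 4-base loop paired. The consensus fixes some of these pairs and sets C or T opposite A or G in the others, so the pairing follows largely from the search. The other 21 had no match in their annotated transcripts. Of the 46, 26 carried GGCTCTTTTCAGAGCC: 3 H1, 10 H2A, 8 H2B and 5 H3 genes, and no H4 gene. The 12 H4 genes with a match all had another stem, GGCCC or GGTCC at its start, and 7 of them carried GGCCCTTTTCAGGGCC. A version with A in the last loop position, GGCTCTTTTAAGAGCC, was in 6 genes (Hist1h2bk, Hist1h3c, Hist1h3e, Hist1h3f, Hist1h1t and Hist1h2bb). The matches of the 7 genes below, which all passed the test between genotypes, are printed 5′ to 3′ from GENCODE transcripts, with the stem-loop in capitals and 5 bases on each side.
Hist1h2bk: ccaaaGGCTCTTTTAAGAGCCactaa
Hist1h3c: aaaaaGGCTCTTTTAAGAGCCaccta
Hist1h3b: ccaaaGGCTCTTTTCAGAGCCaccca
Hist1h1c: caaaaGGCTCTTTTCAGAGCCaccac
Hist2h2ac: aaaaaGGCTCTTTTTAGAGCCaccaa
Hist1h4f: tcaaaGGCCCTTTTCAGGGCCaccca
Hist4h4: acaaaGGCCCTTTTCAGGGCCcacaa
The first 3 belong to genes that rose in Cmtr1 cKO, as does Hist1h4f, and the others to genes that fell. Hist1h3b and Hist1h1c shared the same 16 bases and moved in opposite directions, as did Hist1h4f and Hist4h4. On GRCm38 the stem-loops lie at chr13:22036300-22036315 (Hist1h2bk, + strand), chr13:23745047-23745062 (Hist1h3c, - strand), chr13:23752820-23752835 (Hist1h3b, + strand), chr13:23739512-23739527 (Hist1h1c, + strand), chr3:96220418-96220433 (Hist2h2ac, - strand), chr13:23551291-23551306 (Hist1h4f, - strand) and chr6:136803998-136804013 (Hist4h4, - strand). Each is in an annotated exon.

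The promoters, from 250 bases before to 50 bases after the start in RefSeq (GRCm38.p6), were matched for 62 of the 67 genes. TATAAA, on either strand, was in 56.5% of them, against 13.6% of 32851 promoters of that length. CCAAT was in 85.5% against 37.4%, and it was in every H1, H2A, H2B and H3 promoter but in only 3 of 12 H4 promoters. The octamer ATTTGCAT was in 22.6% against 1.74%, and it was in 7 of 18 H2A and 7 of 16 H2B promoters and in none of H1, H3 or H4. Many H2A and H2B genes stand head to head, so their windows can share bases. None of the 3 motifs contains another. The promoters of Hist1h2bk (chr13:22035571-22035870, + strand), Hist2h2ac (chr3:96220831-96221130, - strand) and Hist4h4 (chr6:136804382-136804681, - strand) are printed because the first rose and the other two fell. Capitals mark the 3 motifs or their reverse complements.
Hist1h2bk: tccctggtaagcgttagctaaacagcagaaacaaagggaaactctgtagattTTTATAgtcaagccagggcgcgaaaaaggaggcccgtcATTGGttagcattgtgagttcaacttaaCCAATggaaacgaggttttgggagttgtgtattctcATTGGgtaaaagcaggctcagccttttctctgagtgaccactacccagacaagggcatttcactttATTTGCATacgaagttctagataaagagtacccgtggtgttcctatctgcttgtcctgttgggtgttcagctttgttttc
Hist2h2ac: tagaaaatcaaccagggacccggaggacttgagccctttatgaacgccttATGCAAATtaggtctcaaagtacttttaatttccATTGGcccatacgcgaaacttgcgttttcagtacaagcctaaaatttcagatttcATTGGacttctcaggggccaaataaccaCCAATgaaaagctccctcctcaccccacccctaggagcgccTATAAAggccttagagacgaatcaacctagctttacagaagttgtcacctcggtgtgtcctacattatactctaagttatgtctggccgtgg
Hist4h4: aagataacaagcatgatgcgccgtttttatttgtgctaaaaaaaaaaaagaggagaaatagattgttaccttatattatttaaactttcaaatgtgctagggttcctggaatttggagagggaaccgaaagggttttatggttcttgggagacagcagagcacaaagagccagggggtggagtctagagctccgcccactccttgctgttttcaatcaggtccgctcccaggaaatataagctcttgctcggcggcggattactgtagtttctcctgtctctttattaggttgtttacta
The Hist1h2bk and Hist2h2ac windows held all 3 motifs although the genes moved in opposite directions. The Hist4h4 window held none of these letters. A match is a description of the sequence only.

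The histone genes did not move as 1 block in Cmtr1 cKO: 6 rose, 4 fell, and their summed level did not separate the groups. A total of 52 of the 65 genes had enough counts to be tested with edgeR's quasi-likelihood test. A gene was called at a Benjamini-Hochberg adjusted p under 0.05 over all 12748 genes tested. The filter asks for enough counts in any 2 libraries, so a gene could enter without reaching this in both controls. Hist1h2bk, Hist1h3c and Hist1h3b, which rose, entered in this way, with control counts of 2 and 6, 10 and 10, and 6 and 20. Hist1h2af did so too. Hist2h3c2, with 7 and 6 counts in the controls and 3, 3, 2 and 4 in Cmtr1 cKO, was not tested. The 6 that rose are 11.5% of the 52, where 4.66% of all tested genes were called higher, and the 4 that fell are 7.69%, where 6.77% of all tested genes were called lower. In either direction 11.4% of all tested genes were called. At an unadjusted p under 0.05 (edgeR), 16 of the 52 histone genes were higher and 5 of the 52 lower. Of all tested genes, 15.1% were higher and 15.7% lower at that limit. The summed histone level was 862 and 1106 CPM in the 2 controls against 898, 866, 1017 and 1022 CPM in Cmtr1 cKO 1 to 4. All 4 Cmtr1 cKO sums lay between the 2 controls, which differed from each other more than the groups did (984 ± 172 and 951 ± 80.4 CPM, SD). In bulk RNA, fewer cells of a type and less RNA per cell cannot be told apart.

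The median log2 fold change of the 52 genes was 0.24, against -0.00047 for all tested genes, and 34 of the 52 (65.4%) were above 0, against 49.95% of all tested genes. Every Cmtr1 cKO library was above both controls for 15 of the 52 (28.8%, against 18.2% of all tested genes) and below both for 6 (11.5%, against 20.8%). The 52 include genes that the filter would not have kept on the controls alone. The median was 0.0019 without control 1 and 0.46 without control 2. With the non-exonic read share as a covariate it was 0.43, with 10 genes called higher and 1 lower (19.2% and 1.92% of the 52), where 2.51% and 2.71% of all tested genes were called with that covariate. The 13 genes not tested had at most 12 counts in any library, and 5 of them had no count in any library.

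**Figure D1:**
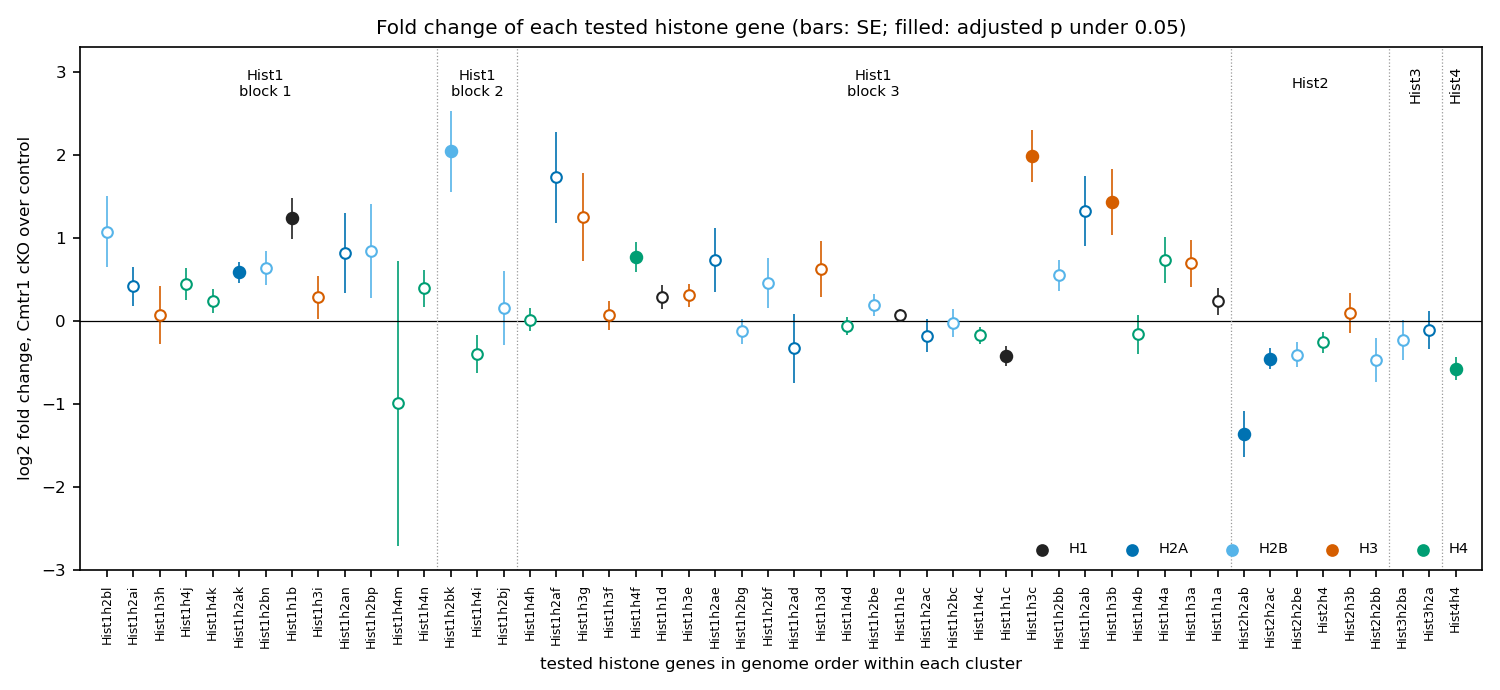
Log2 fold change (Cmtr1 cKO over control, y axis) of the 52 tested histone genes, placed in genome order within each cluster (x axis) and coloured by histone type. Bars are standard errors and filled points passed the test: the 6 that rose are all in Hist1, and 3 of the 4 that fell are Hist2h2ab, Hist2h2ac and Hist4h4.

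The genes that rose were 2 H3 genes and 1 gene of each other type, all in Hist1. Hist1h2bk (H2B, chr13:22035870-22036345, 1 exon) had 0.17 and 0.58 CPM in the 2 controls against 1.48, 1.54, 1.38 and 1.81 CPM in Cmtr1 cKO 1 to 4. All 4 Cmtr1 cKO values were above both controls, but the controls rested on 2 and 6 counts. Its log2 fold change was 2.04 ± 0.49 SE (adjusted p = 0.0249, edgeR). Hist1h3c (H3, chr13:23744973-23745602, 1 exon) had 0.87 and 0.97 CPM in the 2 controls against 3.33, 4.44, 3.91 and 3.10 CPM in Cmtr1 cKO. The groups were well apart, with a log2 fold change of 1.99 ± 0.32 SE (adjusted p = 0.00326, edgeR). Hist1h3b (H3, chr13:23752267-23752886, 1 exon) had 0.52 and 1.94 CPM in the 2 controls against 2.87, 3.45, 3.28 and 3.53 CPM in Cmtr1 cKO. Its controls differed from each other by more than control 2 differed from Cmtr1 cKO 1, and the log2 fold change was 1.43 ± 0.40 SE (adjusted p = 0.0412, edgeR). Per kb of exon, all 3 are among the less abundant histone genes.

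Hist1h1b (H1, chr13:21779883-21780625, 1 exon) encodes a linker histone that binds DNA where it enters and leaves the nucleosome. It had 1.92 and 2.62 CPM in the 2 controls against 4.81, 4.99, 5.29 and 6.28 CPM in Cmtr1 cKO, a log2 fold change of 1.24 ± 0.25 SE (adjusted p = 0.0114, edgeR). All of its 50-base windows are found in no other annotated gene. Hist1h4f (H4, chr13:23551258-23551648, 1 exon) had 6.03 and 7.67 CPM in the 2 controls against 9.63, 11.2, 13.1 and 12.6 CPM in Cmtr1 cKO. Its log2 fold change was 0.77 ± 0.18 SE (adjusted p = 0.0238, edgeR). Hist1h2ak (H2A, chr13:21753435-21753827, 1 exon) had 10.1 and 10.7 CPM in the 2 controls against 16.3, 14.1, 16.2 and 15.7 CPM in Cmtr1 cKO. The controls lay close together and below all 4 others, and the log2 fold change was 0.58 ± 0.13 SE (adjusted p = 0.0184, edgeR).

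Leaving out a control leaves 1 library in that group, which is then assumed to vary like the Cmtr1 cKO libraries. The number of genes called in the whole data drops from 1457 to 255 without control 1 and to 193 without control 2, so a call lost in these refits says little about a single gene. Without control 1, Hist1h2bk had a log2 fold change of 1.41, Hist1h3c 1.92, Hist1h3b 0.76, Hist1h1b 1.03, Hist1h4f 0.61 and Hist1h2ak 0.55, and none was called. Without control 2 the log2 fold changes were 3.09 (Hist1h2bk), 2.08 (Hist1h3c), 2.63 (Hist1h3b), 1.48 (Hist1h1b), 0.96 (Hist1h4f) and 0.63 (Hist1h2ak), and of these Hist1h3b was called. Hist1h3c and Hist1h1b stayed called without any 1 of the Cmtr1 cKO libraries. The call ended for Hist1h3b without Cmtr1 cKO 1 (1.49), for Hist1h2bk (2.05) and Hist1h3b (1.41) without Cmtr1 cKO 2, and for Hist1h2bk (2.10), Hist1h3b (1.45), Hist1h4f (0.72) and Hist1h2ak (0.58) without Cmtr1 cKO 3. With both strands counted, Hist1h3b (1.42) and Hist1h2ak (0.80) were not called. Each of the 6 was above 0 in every alternative run.

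The genes that fell included both H2A genes of Hist2 that could be tested. Hist2h2ab (H2A, chr3:96219865-96220308, 1 exon) had 4.72 and 5.63 CPM in the 2 controls against 1.30, 1.81, 2.33 and 2.58 CPM in Cmtr1 cKO. All 4 Cmtr1 cKO values were below both controls, with a log2 fold change of -1.36 ± 0.28 SE (adjusted p = 0.0118, edgeR). Hist2h2ac (H2A, chr3:96220361-96220880, 1 exon) is its neighbour, tail to tail on the other strand. It had 38.6 and 44.5 CPM in the 2 controls against 31.4, 25.0, 29.2 and 35.2 CPM in Cmtr1 cKO, a log2 fold change of -0.46 ± 0.12 SE (adjusted p = 0.0380, edgeR). Per kb of exon, Hist2h2ac was the most abundant H2A gene, at 79.8 CPM per kb in the controls and 58.1 in Cmtr1 cKO. Reads on the strand opposite to Hist2h2ab, on which Hist2h2ac is transcribed, numbered 59 and 62 in the controls and 39, 39, 48 and 31 in Cmtr1 cKO 1 to 4. Its own counts were 54 and 58 in the controls and 14, 20, 22 and 30 in Cmtr1 cKO, so in every library the opposite strand held at least as many reads as its own.

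Hist4h4 (H4, chr6:136801553-136804415), the gene outside the large clusters, had 24.0 and 31.3 CPM in the 2 controls against 18.6, 18.7, 21.3 and 15.6 CPM in Cmtr1 cKO. Its log2 fold change was -0.58 ± 0.14 SE (adjusted p = 0.0266, edgeR). Its annotated transcript runs 2445 bases past the stem-loop. Hist1h1c (H1, chr13:23738808-23740367) had 175 and 238 CPM in the 2 controls against 150, 134, 166 and 165 CPM in Cmtr1 cKO. It held more reads than any other histone gene, and control 1 lay much closer to the Cmtr1 cKO libraries than control 2 did. The log2 fold change was -0.42 ± 0.12 SE (adjusted p = 0.0438, edgeR).

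The same refits were made for the 4 genes that fell. Without control 1 the log2 fold changes were -1.48 (Hist2h2ab), -0.55 (Hist2h2ac), -0.75 (Hist4h4) and -0.62 (Hist1h1c), and of these Hist1h1c was called. Without control 2 they were -1.22 (Hist2h2ab), -0.34 (Hist2h2ac), -0.36 (Hist4h4) and -0.18 (Hist1h1c), and none was called. The value of Hist1h1c moved most with the control left out, and that of Hist2h2ab stayed below -1.2 with either. Hist2h2ab stayed called without any 1 of the Cmtr1 cKO libraries. Hist2h2ac was not called without Cmtr1 cKO 1 (-0.47), 2 (-0.37) or 3 (-0.43), Hist4h4 not without Cmtr1 cKO 2 (-0.58), and Hist1h1c not without Cmtr1 cKO 1 (-0.41), 2 (-0.36), 3 (-0.45) or 4 (-0.46). With the non-exonic read share as a covariate Hist2h2ab had -0.78, Hist2h2ac -0.19 and Hist1h1c -0.19, none of them called. With both strands counted Hist2h2ab (-0.79) and Hist2h2ac (-0.64) were not called. Each of the 4 was below 0 in every alternative run.

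**Figure D2:**
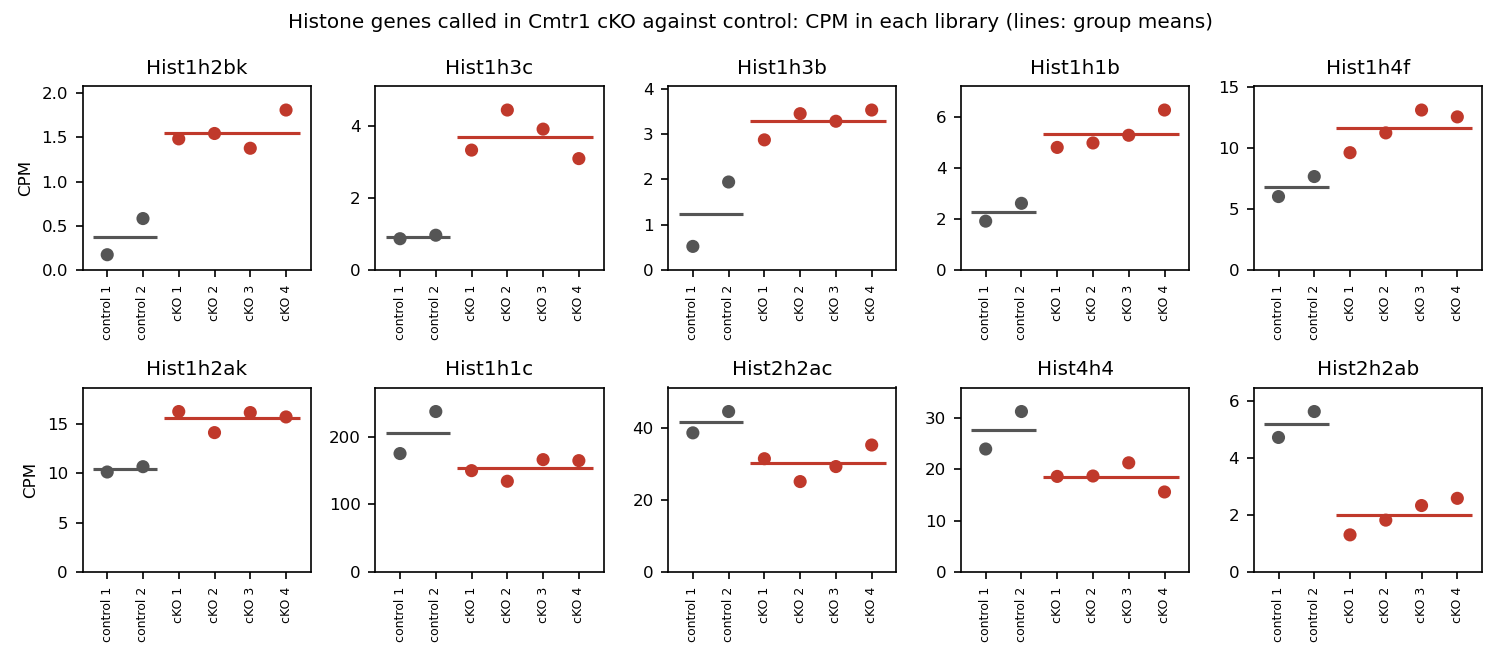
CPM in each library (points; y axis from 0, 1 panel per gene) of the 10 histone genes that passed the test, with lines at the group means. The upper row and Hist1h2ak show genes in which all 4 Cmtr1 cKO libraries lie above both controls, and the other panels those in which all 4 lie below.

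By type, the linker histones had calls in both directions. Beside the calls of each type here and below, 4.66% of all tested genes were called higher and 6.77% lower. Of 6 H1 genes 5 were tested, with Hist1h1b higher and Hist1h1c lower. Hist1h1e, the other abundant linker histone, had 84.9 and 96.5 CPM in the 2 controls against 96.2, 91.2, 96.7 and 96.6 CPM in Cmtr1 cKO, a log2 fold change of 0.07 (edgeR adjusted p = 0.559). Its groups overlapped, and 25.7% of its exon bases are shared with other genes on the same strand, Hist1h2be among them. Summed H1 levels were 301 and 394 CPM in the 2 controls against 308, 285, 327 and 327 CPM in Cmtr1 cKO, which overlap. Hist1h1t, the linker histone of the testis, had no count in any library, which allows up to 3 counts per library.

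Of the 18 H2A genes 11 were tested, with 1 higher and 2 lower. The sums of the clusters lay on opposite sides. The 13 Hist1 genes summed to 26.3 and 33.4 CPM in the 2 controls, then to 38.4, 35.8, 43.4 and 42.2 CPM in Cmtr1 cKO, all 4 above both controls. The 4 Hist2 genes summed to 43.9 and 51.3 CPM in the 2 controls, then to 33.0, 27.0, 32.3 and 38.4 CPM in Cmtr1 cKO, all 4 below both controls. Of the control mean of 47.6 CPM, Hist2h2ac held 41.5 and Hist2h2ab 5.18, and both were called lower above. The Hist1 sum includes Hist1h2ak, called higher, so these sums are not separate from the calls. The sum over all H2A genes overlapped between the groups (82.9 ± 11.2 and 77.6 ± 6.79 CPM, SD). Among the genes not called, Hist1h2af had the largest log2 fold change, 1.73 ± 0.55 SE (adjusted p = 0.0622, edgeR), from 3 and 9 counts in the controls to 11, 17, 22 and 30 in Cmtr1 cKO. Hist1h2aa, a testis gene, had no count.

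Among the H2B genes Hist1h2bk was the 1 called of 13 tested. The most abundant per kb of exon were Hist1h2bg, with a log2 fold change of -0.13 (edgeR adjusted p = 0.597), and Hist1h2bn, with 0.63 ± 0.21 SE (adjusted p = 0.0673, edgeR). Hist1h2bn had 4.90 and 6.70 CPM in the 2 controls against 9.72, 7.89, 10.6 and 7.74 CPM in Cmtr1 cKO, and its groups did not overlap. Hist1h2bl had 0.44 and 1.36 CPM in the 2 controls against 2.22, 1.72, 1.80 and 1.72 CPM in Cmtr1 cKO, a log2 fold change of 1.07 ± 0.43 SE (adjusted p = 0.118, edgeR). Both H2B genes of Hist2 were below both controls in all 4 Cmtr1 cKO libraries, and their sum went from 18.5 ± 2.61 to 13.8 ± 0.57 CPM (SD), though neither passed the test. Of all tested genes 20.8% lay below both controls in this way. Hist1h2ba, a testis gene, had no count.

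All 10 tested H3 genes had log2 fold changes above 0, from 0.07 to 1.99, with a median of 0.47, and 2 of them passed the test. Of all tested genes 49.95% were above 0. The filter bears on this shared sign. Hist1h3b, Hist1h3c and Hist1h3g (9 and 4 counts in the controls) did not reach its count in both controls. Hist2h3c2, lower in all 4 Cmtr1 cKO libraries than in both controls, was not tested. The 2 most abundant per kb of exon were not called. Hist1h3e had 25.7 and 28.7 CPM in the 2 controls against 29.5, 28.6, 37.5 and 38.8 CPM in Cmtr1 cKO, a log2 fold change of 0.31 (edgeR adjusted p = 0.155). Hist1h3f had 25.4 and 40.4 CPM in the 2 controls against 29.1, 32.5, 38.9 and 36.8 CPM in Cmtr1 cKO, a log2 fold change of 0.07 (edgeR adjusted p = 0.826) that was -0.23 without control 1. Summed H3 levels were 70.3 and 97.0 CPM in the 2 controls against 88.4, 92.0, 115 and 110 CPM in Cmtr1 cKO, which overlap.

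The H4 genes held the largest share of histone reads, and the most abundant of them had log2 fold changes near 0. Hist1h4h had 50.2 and 68.3 CPM in the 2 controls against 53.6, 52.3, 63.9 and 68.6 CPM in Cmtr1 cKO, a log2 fold change of 0.01 (edgeR adjusted p = 0.964). Per kb of exon it was the most abundant of all the histone genes. Hist1h4d had 114 and 130 CPM in the 2 controls against 107, 100, 126 and 133 CPM in Cmtr1 cKO, a log2 fold change of -0.06 (edgeR adjusted p = 0.727). Of 13 tested H4 genes Hist1h4f was called higher and Hist4h4 lower. The counts of Hist1h4m were erratic in both groups, at 0 and 97 in the controls and 43, 2, 0 and 56 in Cmtr1 cKO, with a log2 fold change of -0.996 ± 1.72 SE (adjusted p = 0.739, edgeR) that ran from -2.01 to 7.65 with 1 library left out. Only 10.2% of its 50-base windows are found in no other gene, and it shares most with Hist1h4n, which had 114, 66, 95, 152, 106 and 110 counts in the same order of libraries and was named after its values were seen.

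**Figure D3:**
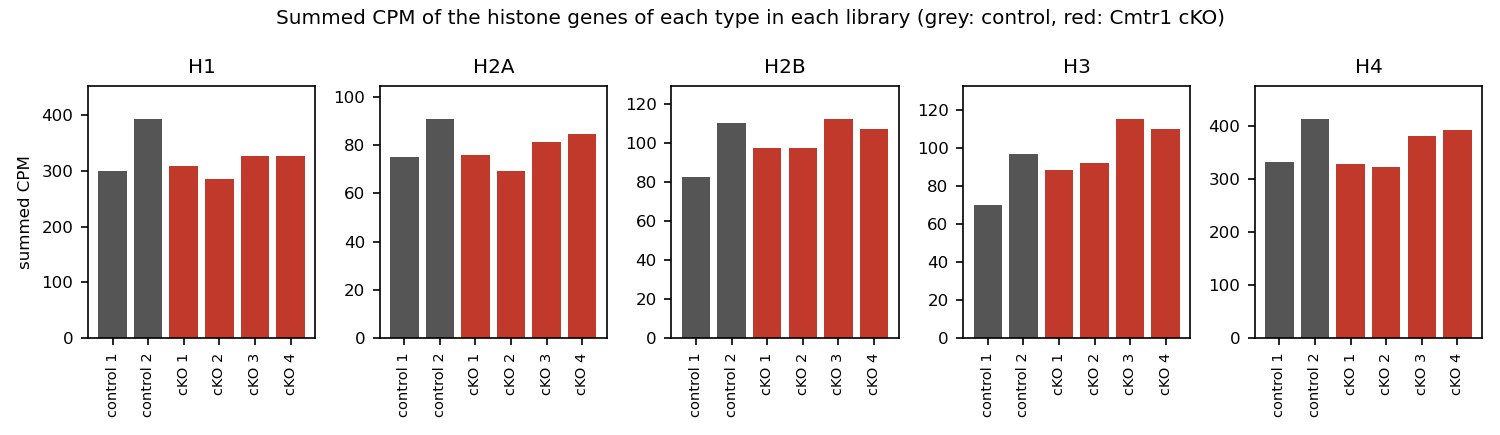
Summed CPM (y axis, from 0) of the histone genes of each type in each library, with controls in grey and Cmtr1 cKO in red. In each of the 5 types the Cmtr1 cKO bars overlap the range of the controls, in which control 2 is above control 1.

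In summed level, Hist2 and Hist4h4 separated the groups and none of the 5 types did. Hist4h4 is a single gene called above, and the Hist2 sum includes the called Hist2h2ac and Hist2h2ab, so these levels are not separate from the calls. In Hist1, 6 genes rose and 1 fell of 43 tested (13.95% and 2.33%), with a median log2 fold change of 0.39 and 33 above 0. Of all tested genes 4.66% were called higher and 6.77% lower, and 49.95% were above 0. In Hist2, none was called higher and 2 fell of 6 tested (33.3%), with a median of -0.43 and 5 below 0. Hist2 summed to 98.2 and 119 CPM in the 2 controls, then to 77.7, 74.8, 88.3 and 93.8 CPM in Cmtr1 cKO, all 4 below both controls. The log2 ratio of the means was -0.37, which was -0.22 without control 2, -0.50 without control 1 and -0.10 with the non-exonic read share as a covariate. Hist1 summed to 731 and 945 CPM in the 2 controls, then to 795, 764, 899 and 904 CPM in Cmtr1 cKO, which overlap. The 2 genes of Hist3 were not called: Hist3h2a had a log2 fold change of -0.11 and Hist3h2ba of -0.23 (edgeR adjusted p = 0.771 and 0.551).

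Within Hist1, gaps over 100 kb divide the genes into 4 blocks, and in the block nearest the start of the chromosome nearly all log2 fold changes were above 0. That block (chr13:21715763-21837530) holds 18 genes, of which 13 were tested. Among these, Hist1h2bl, Hist1h2an, Hist1h2bp and Hist1h4m did not reach the filter's count in both controls. Their control counts were 5 and 14, 9 and 10, 4 and 6, and 0 and 97. Log2 fold changes were above 0 in 12 of the 13, all but Hist1h4m, and 2 were called higher, Hist1h2ak and Hist1h1b (15.4%). Of all tested genes 49.95% were above 0, 4.66% were called higher and 6.77% lower. Its sum went from 62.3 and 82.2 CPM in the controls to 89.98, 88.6, 98.7 and 101 CPM in Cmtr1 cKO, a ratio of means of 1.31 with all 4 above both controls. The median share of 50-base windows found in no other gene was 13.6% in this block, against 58.2% in the largest block. Among all tested histone genes, 18 of the 21 with under 50% such windows were above 0, against 16 of the 31 with at least 50%. Place in this block and the share of such windows therefore cannot be told apart here. The 29 genes of the largest block (chr13:23531050-23764406) had a median log2 fold change of 0.29 over 27 tested, 3 higher and 1 lower (11.1% and 3.70%). Their sum overlapped between groups (756 ± 134 and 736 ± 63.7 CPM, SD). The 5 genes between them (chr13:22035164-22043676) include Hist1h2bk, and 3 were tested. The last block, the testis pair Hist1h2aa and Hist1h2ba, had no count.

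Some shares of the histone RNA separated the groups where its summed amount did not. Of 13 shares computed, a measure chosen after the sums were seen, 9 did not overlap between the groups. The 4 that overlapped were those of H2A, H4 and Hist3 in the histone CPM and of Hist1h4d in the H4 CPM. Within each library, Hist1 genes held 84.8% and 85.5% of the summed histone CPM in the 2 controls against 88.4%, 88.2%, 88.3% and 88.5% in Cmtr1 cKO (85.2% ± 0.47 and 88.4% ± 0.14, SD). Hist2 held 11.4% and 10.7% in the controls and 8.65%, 8.64%, 8.69% and 9.18% in Cmtr1 cKO. Hist4h4 held 2.78% and 2.83% in the controls and 2.07%, 2.16%, 2.09% and 1.52% in Cmtr1 cKO. For these 3 shares the groups did not overlap, and the gap between the group means was larger than the SD within either group. The cluster shares of a library add up to its whole histone CPM, so a fall in Hist2 and Hist4h4 raises the share of Hist1. The summed CPM of Hist1 itself had a ratio of means of 1.0026. These shares are therefore tied and are not separate results. With 2 against 4 libraries an exact two-sided permutation test cannot go below p = 0.0667, and none was run.

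Within types, Hist1h1c held 58.3% and 60.4% of the H1 CPM in the 2 controls against 48.7%, 47.0%, 50.8% and 50.5% in Cmtr1 cKO. Hist1h1e held 28.2% and 24.5% in the controls and 31.2%, 31.9%, 29.5% and 29.6% in Cmtr1 cKO. Hist2h2ac held 51.5% and 49.0% of the H2A CPM in the 2 controls against 41.4%, 36.3%, 36.0% and 41.6% in Cmtr1 cKO. These shares do not overlap between the groups either, though Hist1h1c and Hist2h2ac, like Hist4h4, are genes called above and their shares are not separate evidence. A lower Hist1h1c share raises the share of Hist1h1e in the same H1 sum. The shares of the types are tied in the same way. A share within a library does not depend on how libraries are scaled. H3 as a whole went from 8.47% ± 0.44 to 10.6% ± 0.62 of the histone CPM (SD), H2B from 9.78% ± 0.25 to 10.9% ± 0.33 (SD), and H1 from 35.2% ± 0.52 to 32.8% ± 1.06 (SD). The shares that overlapped were 8.45% ± 0.34 and 8.16% ± 0.24 for H2A, and 38.1% ± 0.86 and 37.4% ± 0.83 for H4 (SD).

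**Figure D4:**
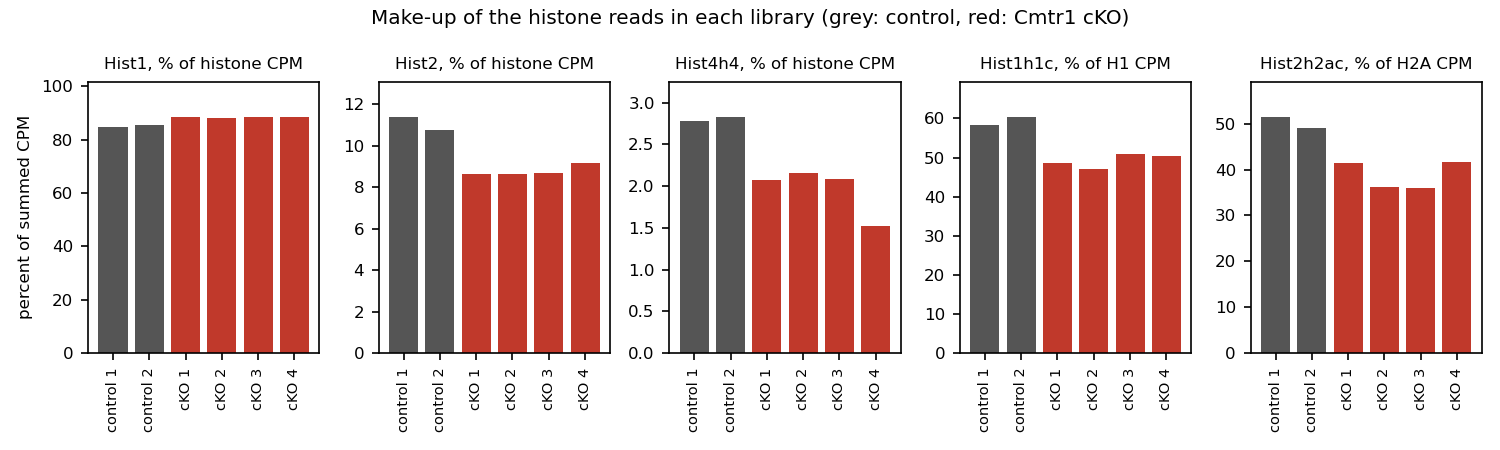
Percent (y axis, from 0) of the summed histone CPM held by Hist1, Hist2 and Hist4h4, of the H1 CPM held by Hist1h1c and of the H2A CPM held by Hist2h2ac, in each library (controls grey, Cmtr1 cKO red). The Hist1 share is higher in all 4 Cmtr1 cKO libraries than in both controls, and the other 4 shares are lower.

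Near-identical copies bear on these counts, since a read that maps to several places enters no gene's count in tables of this layout. For each gene the share of its 50-base windows that no gene elsewhere in the annotation contains was computed. Of the 52 tested genes 21 had fewer than 50% such windows. They include genes, such as Hist1h2bk and Hist1h3b, that the filter would not have kept on the controls alone. Among these 21 the median log2 fold change was 0.42, with 18 above 0, 3 called higher and none lower. Among the 31 with at least 50% it was 0.01, with 16 above 0, 3 called higher (Hist1h3c, Hist1h1b and Hist1h4f) and 4 lower. That is 14.3% of the 21 higher, and 9.68% of the 31 higher and 12.9% lower. Of all tested genes 4.66% were called higher and 6.77% lower. The share of reads that mapped to several places was 9.51% and 10.5% in the controls and 6.42%, 6.61%, 8.13% and 8.92% in Cmtr1 cKO 1 to 4, below both controls in all 4. Its part in the result was not tested. The share of Hist1 in the histone CPM was 3.20 percentage points higher in Cmtr1 cKO over all genes and 3.14 points higher over the genes with at least 50% such windows. The 50% limit was chosen after the data were seen.

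The annotated end was also set beside the changes. Of the 22 genes whose annotation ends within 60 bases past the stem-loop, 16 were tested, with a median log2 fold change of 0.50, 3 called higher and 1 lower. These 16 include Hist1h2bk and Hist1h3b, which the filter would not have kept on the controls alone. Of the 24 whose annotation extends further, 20 were tested, with a median of 0.00066, 1 higher and 2 lower. The 21 with no match had 16 tested, a median of 0.26, 2 higher and 1 lower. In that order 18.75%, 5% and 12.5% were called higher and 6.25%, 10% and 6.25% lower, against 4.66% and 6.77% of all tested genes. Within Hist1 alone the medians were 0.55, 0.13 and 0.50 in the same order. The genes that extend further had more windows of their own (median 77.9%) than those that end at the stem-loop (39.6%) or those with no match (20.3%), so the annotated end and the share of such windows cannot be told apart here. Level moved with the change as well: the 26 tested genes with the higher level per kb of exon had a median log2 fold change of 0.08 and the 26 with the lower level 0.54. The lower 26 include genes, such as Hist1h2bk and Hist1h3c, that the filter would not have kept on the controls alone. Spearman's rho between level and change was -0.34 over the 52 genes, a description across genes that share libraries.

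**Figure D5:**
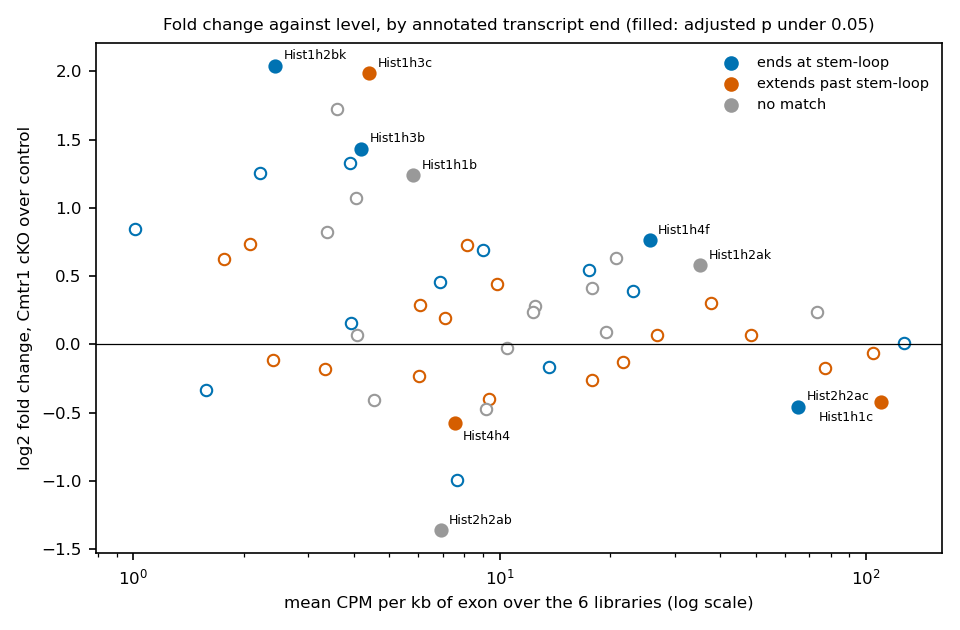
Log2 fold change (y axis) against the mean CPM per kb of exon over the 6 libraries (x axis, log scale) for the 52 tested histone genes, coloured by where the annotated transcript ends. Filled points passed the test. The genes with log2 fold changes above 1 lie at under 10 CPM per kb, and the 7 most abundant lie between -0.46 and 0.24.

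Genes that process histone transcripts passed the test about as often as all genes did. Of 31 listed genes 29 were tested, with 1 higher, 2 lower (10.3% called, against 11.4% of all tested genes) and a median log2 fold change of -0.04. Cpsf3, the nuclease that cuts histone and other pre-mRNAs, rose from 129 ± 0.35 to 156 ± 10.5 CPM (SD), a log2 fold change of 0.27 (edgeR adjusted p = 0.0425). Snrpg, a protein of the ring around snRNAs, fell from 34.9 ± 4.22 to 21.04 ± 2.60 CPM (SD), a log2 fold change of -0.73 (edgeR adjusted p = 0.00510). Casp8ap2, which histone pre-mRNA cleavage needs, had -0.28 (edgeR adjusted p = 0.0489). Its call held in 5 of the alternative runs and was lost in 10, RLE size factors among them. Slbp, which binds the stem-loop, had 39.6 and 34.9 CPM in the 2 controls against 38.5, 33.2, 37.7 and 34.1 CPM in Cmtr1 cKO, and its log2 fold change of -0.06 did not pass (edgeR adjusted p = 0.726). Npat, the coactivator of histone genes, had -0.19 (edgeR adjusted p = 0.106) with all 4 Cmtr1 cKO libraries below both controls. Rnu7, the U7 snRNA, had no count in any library, which does not show that this RNA was absent from the cells. This list's call count ran from 0 to 3 higher and from 0 to 6 lower with 1 library left out.

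Of 25 histone chaperone and deposition genes 24 were tested, with 1 higher, 4 lower (20.8% called) and a median of 0.02. That is 4.17% higher and 16.7% lower, against 4.66% and 6.77% of all tested genes. Chaf1b, a subunit of the CAF-1 complex that deposits H3 and H4 on new DNA, rose from 16.4 ± 0.48 to 25.1 ± 1.87 CPM (SD), a log2 fold change of 0.61 (edgeR adjusted p = 0.00803). Nap1l1, a chaperone of H2A and H2B, fell from 155 ± 1.06 to 87.9 ± 10.1 CPM (SD), a log2 fold change of -0.82 (edgeR adjusted p = 0.000532). Anp32e, a chaperone of the variant H2A.Z, had -0.50 and Tonsl, which binds newly deposited H4, had -0.36 (edgeR adjusted p = 0.00896 and 0.0120). The replacement histones, whose production is not tied to S phase, had 2 higher of 9 tested (22.2%, against 4.66% of all tested genes). These were Cenpa, the H3 of centromeres, at 0.57, and H2afy, a macroH2A gene, at 0.28 (edgeR adjusted p = 0.0218 and 0.0282). With 1 library left out, 0 to 4 chaperone genes were higher and 1 to 5 lower, and 0 to 2 replacement histones were higher.

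All 35 genes listed for S phase and proliferation were tested, with 6 higher and 1 lower (17.1% and 2.86%, against 4.66% and 6.77% of all tested genes), and their median was 0.30. The list was chosen with earlier results of these data known, so these shares are not independent of that choice. The mitotic gene Nusap1 had 0.52 and 0.87 CPM in the 2 controls against 2.499, 2.81, 3.07 and 1.63 CPM in Cmtr1 cKO, a log2 fold change of 1.83 (edgeR adjusted p = 0.0187). The filter would not have kept Nusap1 on these control levels alone, so its place among the 6 is not independent of its rise. Birc5, which acts in cell division, had 1.67, and Ccna2, a cyclin of S phase and mitosis, 1.05 (edgeR adjusted p = 0.0295 and 0.0408). Over the alternative runs Nusap1 lost its call in 5, Birc5 in 6 and Ccna2 in 8. Mki67, a marker of cycling cells, rose from 12.1 ± 2.59 to 26.3 ± 3.11 CPM (SD), a log2 fold change of 1.13 (edgeR adjusted p = 0.00130). Pcna, the sliding clamp of replication, had 95.7 and 105 CPM in the 2 controls against 91.5, 84.6, 97.6 and 100 CPM in Cmtr1 cKO, and its log2 fold change of -0.10 did not pass (edgeR adjusted p = 0.437). With 1 library left out 3 to 7 of these genes were higher and 0 to 3 lower, and with the covariate 3 and 0. These values stand beside the histone genes that rose, and their part in that result was not tested.

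Naive T cell markers were present: all 12 were tested, and 1 of them, Ccr7, the lymph node homing receptor, fell (-0.36, edgeR adjusted p = 0.0433). Of all tested genes 6.77% were called lower, against 8.33% of these markers, 28.6% of the tested B cell markers and 20% of the tested CD8 T and NK cell markers. Of 7 B cell markers, 2 fell, Ighm (-0.35) and Cd74 (-0.74; edgeR adjusted p = 0.0105 and 0.0231), and the list summed to 411 and 431 CPM in the 2 controls against 308 to 356 CPM in Cmtr1 cKO. Of 8 CD8 T and NK cell markers 5 were tested and Nkg7, a granule protein, fell (-1.25, edgeR adjusted p = 0.0486), with sums of 35.4 to 37.7 CPM and 23.1 to 28.5 CPM. Over the alternative runs Ccr7 lost its call in 7, Ighm in 3, Cd74 in 5 and Nkg7 in 8. Of 8 myeloid markers only 3 had enough counts to be tested and none was called, with sums of 24.2 to 41.9 CPM in the controls and 21.2 to 26.2 CPM in Cmtr1 cKO. Lyz2, the lysozyme of myeloid cells, had 11.2 and 2.33 CPM in the 2 controls against 2.04, 2.18, 2.43 and 1.12 CPM in Cmtr1 cKO, a log2 fold change of -1.82 (edgeR adjusted p = 0.0573). Csf1r, a receptor of macrophages, was not tested and had 38 and 7 counts in the controls against 1, 5, 4 and 2 in Cmtr1 cKO. Control 1 was thus the highest library for both, and these 2 genes were named after their values were seen. Only 1 of 6 erythroid and platelet markers (sums of 1.57 to 3.79 and 0.741 to 2.54 CPM, Pf4 at 0) and 1 of 7 stromal and endothelial markers were tested, and neither was called. The latter sums, 309 to 320 and 320 to 340 CPM, were almost all Pecam1 (314 ± 7.99 and 327 ± 9.03 CPM, SD), which T cells also express, and Pdpn and Ccl19 were at 0. Of 6 thymocyte markers 3 were tested and none was called, with sums of 39.7 to 43.5 and 42.3 to 49.9 CPM and Rag2 and Ptcra at 0. The part of B, CD8 T or NK and myeloid cell RNA in the histone results was not tested.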

How the data were processed

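Members and gene lists were chosen with earlier results of these data known. The authors deposited raw read counts per gene for each library, whole numbers, in the layout of STAR's gene table with 1 unstranded and 2 stranded columns. Per the submitters' processing notes, STAR 2.5.2b, edgeR, mm10 and GRCm38 were used, and the gene models behind the counts are not given in the sources used here. Rows that name no gene held 52.1% to 62.0% of reads and stayed out of library sizes.

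The column for the gene's own strand was used. Identifiers matched GENCODE vM21 for 98.9% of 46983 genes. Genes were filtered with filterByExpr, scaled by TMM and tested with edgeR 4.0.16 (glmQLFit with robust settings, glmQLFTest; R 4.3.3), genotype being the only term, with Benjamini-Hochberg adjustment over 12748 genes. SE is the log2 fold change divided by the square root of F. The code was tested on simulated counts. No genome was used, so stem-loops and 50-base windows were read from GENCODE transcripts instead of the genome planned. Windows of genes that overlap the same place were not counted as copies. Genes were named by rule: those called, the 2 most abundant per kb and the 2 with the largest change in each type, the Hist3, Hist4 and testis genes, and up to 4 called genes per list with Slbp, Npat, Casp8ap2, Rnu7, Pcna and Mki67. The alternatives were unstranded counts, RLE size factors, other filters, protein-coding genes only, the non-exonic read share as covariate, a replicate block, each library left out, voom with quality weights (limma 3.58.1) and DESeq2 1.42.0. Counting intervals cover counting error only.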

Additional observations from a re-analysis of the deposited data

Results flagged for a closer look

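Of 63 sets of values in the 4 Cmtr1 cKO libraries that were checked for 1 library standing apart, 4 were marked, where chance marks about 1 in 20. Hist1h1e had 91.2 CPM (91.15) in Cmtr1 cKO 2, below the other 3, which lay between 96.2 and 96.7 CPM. Hist1h2bl had 2.22 CPM in Cmtr1 cKO 1, above the other 3, which lay between 1.72 and 1.80 CPM. Anp32e, the H2A.Z chaperone, had 68.2 CPM in Cmtr1 cKO 4 against 54.8 to 55.5 CPM in the other 3. Tonsl, which binds newly deposited H4, had 106 CPM (106.4) in Cmtr1 cKO 4 against 93.8 to 95.5 CPM. For Anp32e and Tonsl this library lay nearest to the controls.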

How the results depend on the processing

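Each of the 10 called histone genes kept its sign under all 9 other settings and the 6 refits with 1 library left out, while the number of calls did not hold. Genes called higher, 6 as reported, numbered 10 with no filter on low counts, 10 among protein-coding genes only and 10 with the non-exonic read share as covariate, and genes called lower, 4 as reported, numbered 2 with both strands counted and 1 with that covariate, under which 5.22% of all tested genes were called. With that covariate the median was 0.43, and 0.70, 0.24 and 0.49 for genes that end at the stem-loop, extend past it or have no match. The summed log2 ratios were then 0.021 (H1), 0.13 (H2A), 0.29 (H2B), 0.59 (H3), 0.20 (H4), 0.24 (Hist1) and -0.10 (Hist2), so H1, H2A and H4 changed sign. The difference in the Hist1 share was then 3.40 percentage points, with differences of -1.95 (Hist2), -1.295 (Hist4h4) and -7.71 (Hist1h1c in H1). With both strands counted the Hist1 and Hist2 shares moved by 2.25 and -1.30 points. The cause of these shifts was not tested.

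The libraries of a pair share only a number. Deviations correlated at 0.138 for number 1 and -0.152 for number 2 over 12748 genes, and with the replicate block 12 histone genes were called higher and 9 lower (median 0.092), 42.0% of those tested, where 38.5% of all tested genes were called. With the block the processing list had 4 higher and 9 lower, the chaperones 5 higher, the S phase list 6 lower and the replacement histones 4 lower.

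With 1 library left out, the calls over all genes ran from 193 (without control 2) to 3880 (without Cmtr1 cKO 4), or from 1.48% to 30.8% of those tested, while 0 to 12 histone genes were higher and 0 to 5 lower, with medians from 0.0019 to 0.46, and from 0.43 to 0.79, -0.19 to 0.19 and 0.11 to 0.50 by annotated end in the order above. Summed log2 ratios ran from -0.33 to 0.066 (H1), -0.22 to 0.064 (H2A), -0.077 to 0.34 (H2B), 0.074 to 0.54 (H3), -0.21 to 0.11 (H4), -0.16 to 0.21 (Hist1), -0.50 to -0.22 (Hist2), -0.28 to -0.014 (Hist3) and -0.75 to -0.36 (Hist4h4). The Hist1 share moved by 2.87 to 3.53 points and the Hist2 share by -2.60 to -1.96. The processing list gave 0 to 3 higher and 0 to 6 lower, chaperones 0 to 4 and 1 to 5, S phase 3 to 7 and 0 to 3, replacement histones 0 to 2 and 0 to 1.

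In the processing list 0 were higher with both strands counted, 2 with no filter, 2 with coding genes only, 3 with voom weights and 2 with DESeq2, and 1 was lower with both strands counted, RLE, coding genes only or DESeq2, 0 with the covariate and 5 with voom weights. Chaperones had 2 higher with no filter, 0 with the covariate and 3 with voom weights, and 1 lower with the covariate. S phase genes had 3 higher with the covariate and 0 lower with both strands counted, the covariate or DESeq2. Replacement histones had 1 higher with both strands counted or the covariate, 3 with no filter and 1 lower with voom weights.

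Chosen after seeing the data, limits of 50% and 40% on windows of a gene's own left 3 and 4 genes higher, 4 and 4 lower, and medians of 0.012 and 0.067. Depth limits the low genes: 13 of 65 had at most 12 counts in any library, and Hist1h2bk rested on 2 and 6 control counts.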
